A study of Mus musculus with 9 samples.

Results

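The mitosis genes described here are 37 genes that carry a cell from the end of G2 through division, and they were taken by symbol from the table of gene counts of mouse B-cell lymphomas. The list names genes by their function in mitosis, and its rule uses no measured value. All 37 were found among the 41128 gene rows of the table, and all 37 passed the filter on low counts that left 14057 genes for testing. RNA was sequenced from 3 Bcl6 tumors, with the genotype IµBcl6, Smc3 wt/wt and Cγ1 wt/cre, and from 6 Smc3/Bcl6 tumors, with the genotype IµBcl6, Smc3 wt/- and Cγ1 wt/cre, as 1 library per tumor. Both genotypes therefore carried the IµBcl6 transgene, which keeps the germinal center repressor Bcl6 expressed in B cells, and the Cγ1-Cre allele, which recombines once a B cell joins the germinal center reaction. They differed in the deletion of an Smc3 allele in such B cells, and Smc3 encodes a core subunit of the cohesin ring. Other cells of the node would keep both alleles. The labels give no age. As tissue they state the mesenteric lymph node for both tumors numbered 1, and only a lymph node for the rest, whereas the study describes its lymphoma cells as taken from the mesenteric lymph node, so the label may not mark a difference in site.

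A dividing cell enters mitosis when cyclin B and Cdk1 are activated, attaches each chromosome to the spindle through its kinetochores, and waits at the spindle checkpoint until every kinetochore is attached. The anaphase-promoting complex with Cdc20 then destroys securin (Pttg1) and cyclin B, and the freed protease separase (Espl1) cuts the cohesin rings that hold sister chromatids together, after Plk1 and Aurora B have regulated their removal from chromosome arms. Most of these genes are transcribed together late in the cell cycle by the MuvB complex with B-Myb and FoxM1, which acts at the cell cycle homology region (TTTGAA or TTCGAA), and by the trimer NF-Y, which binds CCAAT boxes. In the germinal center, the centroblasts of the dark zone divide faster than almost any other cell of the body.

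The promoters of 6 members are printed because they show the shared elements of the list in genes of mitotic entry, the spindle checkpoint, the anaphase trigger and the mitotic chromosome, and because Top2a, Cdk1 and Bub1b carry results given further on. The stretches were taken from RefSeq (GRCm38.p6), lie directly before the RefSeq start on the gene's own strand, which can differ from the gene bounds given further on from GENCODE M21 (GRCm38), and were chr13:100786487-100786606 (minus strand) for Ccnb1, chr9:70421555-70421734 (minus strand) for Ccnb2, chr10:69352913-69353012 (minus strand) for Cdk1, chr4:118437344-118437423 (minus strand) for Cdc20, chr11:99024190-99024389 (minus strand) for Top2a and chr2:118598011-118598210 (plus strand) for Bub1b. Capitals mark the motif TTTGAA, its variant TTCGAA and the box CCAAT on either strand, so that TTCAAA stands for the first motif, and ATTGG for the box, read from the other strand.
Ccnb1: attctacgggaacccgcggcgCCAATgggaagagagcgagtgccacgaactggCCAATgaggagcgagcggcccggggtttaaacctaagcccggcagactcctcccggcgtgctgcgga
Ccnb2: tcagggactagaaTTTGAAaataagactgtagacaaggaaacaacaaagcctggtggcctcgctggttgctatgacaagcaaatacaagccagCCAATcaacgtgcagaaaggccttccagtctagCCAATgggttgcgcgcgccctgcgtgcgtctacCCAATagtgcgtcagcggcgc
Cdk1: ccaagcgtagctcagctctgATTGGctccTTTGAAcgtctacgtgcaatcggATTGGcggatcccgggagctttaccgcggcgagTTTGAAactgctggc
Cdc20: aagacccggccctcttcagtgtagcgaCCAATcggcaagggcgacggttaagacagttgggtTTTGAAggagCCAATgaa
Top2a: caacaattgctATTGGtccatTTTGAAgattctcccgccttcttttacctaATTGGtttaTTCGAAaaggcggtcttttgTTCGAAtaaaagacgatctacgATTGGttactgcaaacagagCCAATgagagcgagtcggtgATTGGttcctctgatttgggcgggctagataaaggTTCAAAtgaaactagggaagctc
Bub1b: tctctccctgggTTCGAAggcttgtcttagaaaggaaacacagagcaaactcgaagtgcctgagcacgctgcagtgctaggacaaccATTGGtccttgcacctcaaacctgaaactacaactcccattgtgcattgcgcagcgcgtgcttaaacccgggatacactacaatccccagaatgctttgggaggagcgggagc
A window from 250 bases before to 50 bases after the start was at hand for 31 of the 37 members. TTTGAA stood in the windows of 22 members (71.0%), against 20.2% of 27025 genes with a window and 14.6% of the 9870 of these that were tested in the tumors. TTCGAA stood in 3 members (9.68%), against 1.8% of genes, and CCAAT in 23 members (74.2%), against 41.1% of genes. Both kinds of element, TTTGAA or TTCGAA together with CCAAT, stood in 20 members (64.5%), against 9.65% of genes. Of the sequences searched for, Ccnb1 held CCAAT boxes only, 67 and 99 bases before its start. Other forms of the cell cycle homology region were not searched for. Cdc20 held TTTGAA 18 bases before the start and CCAAT at 8 and 53 bases, and Cdk1 held TTTGAA at 15 and 71 bases. Top2a held the most elements of the 6, with CCAAT on 1 strand or the other at 58, 78, 98, 149 and 189 bases. A match of this kind is a description of the letters in the window, and binding was not measured.

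The libraries held between 10156728 and 17774577 counts, and the 37 members together took between 0.113% of them, in Smc3/Bcl6 tumor 4, and 0.455%, in Bcl6 tumor 1. The lowest count of any member in any tumor was 37, so that none of the members' values below rests on a handful of reads. This does not hold for all genes outside the list. Values are library-scaled counts (CPM, with TMM factors). Smc3/Bcl6 tumor 2 stood apart from the other 8 tumors, with low counts of long genes and high counts of short genes, so fold changes and counts past thresholds are given with and without it. Smc3 itself ranged from 88.1 to 126 CPM in the Bcl6 tumors and from 89.7 to 111 CPM in 5 Smc3/Bcl6 tumors, and was at 27.9 CPM in Smc3/Bcl6 tumor 2. Gene counts do not show whether the deleted exon was present, so the deletion could not be checked by these values. The study reports reduced Smc3 mRNA in Smc3/Bcl6 tumors, measured by RT-qPCR.

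Most mitosis genes were high in the same tumors and low in the same tumors, and the tumors of each genotype differed widely. The mean over the 37 members was 6.57, 5.81 and 5.74 log2 CPM in Bcl6 tumors 1 to 3. In Smc3/Bcl6 tumors 1 to 6 the mean was 5.85, 5.91, 5.78, 4.54, 5.61 and 5.25 log2 CPM. Bcl6 tumor 1 stood above the other 8 tumors and Smc3/Bcl6 tumor 4 below them, and the remaining 7 lay between 5.25 and 5.91. Of the 37 members, 23 were highest in Bcl6 tumor 1, 13 in Smc3/Bcl6 tumor 2 and 1, Bub1b, in Smc3/Bcl6 tumor 5. The lowest value fell in Smc3/Bcl6 tumor 4 for 29 members, in tumor 2 for 6 and in tumor 5 for 2. Among the 8 tumors without Smc3/Bcl6 tumor 2, 33 members were highest in Bcl6 tumor 1 and 35 lowest in Smc3/Bcl6 tumor 4. The ratio of these tumors was 11.9 for Bub1 and 8.46 for Kif11, and only Pttg1 was lower in Bcl6 tumor 1 than in Smc3/Bcl6 tumor 4 (ratio 0.615).

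**Figure D1:**
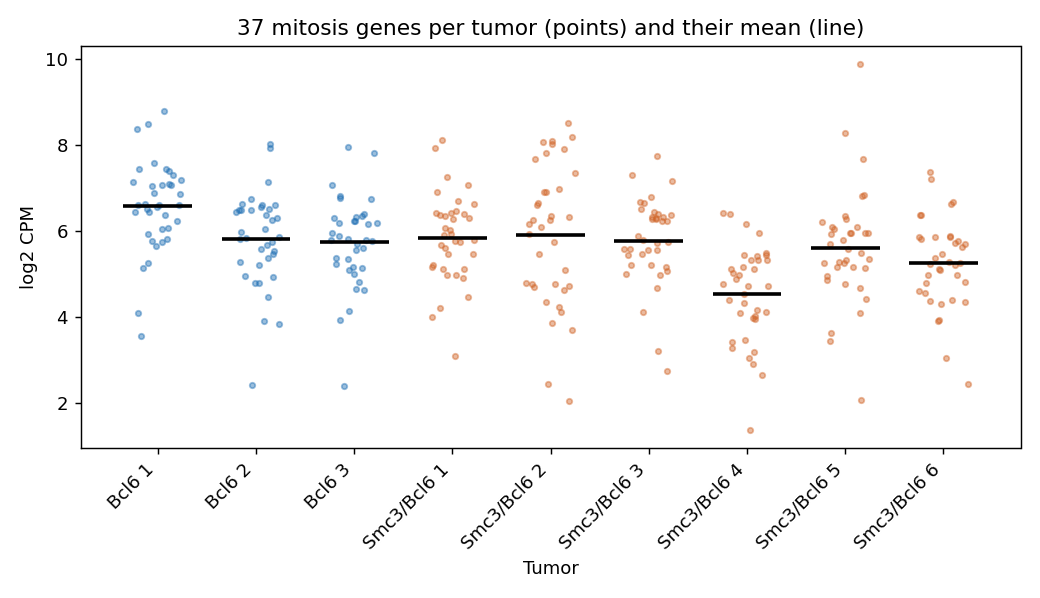
Log2 CPM (vertical axis) of the 37 mitosis genes in each of the 9 tumors (horizontal axis); each point is a gene, the line is the mean over genes, and blue marks Bcl6 and orange Smc3/Bcl6. The line is highest in Bcl6 tumor 1 (6.57) and lowest in Smc3/Bcl6 tumor 4 (4.54), and the points spread most in Smc3/Bcl6 tumor 2.

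By genotype the mean of the 37 members was 6.04 ± 0.46 log2 CPM (SD, n = 3) in Bcl6 tumors and 5.49 ± 0.52 (SD, n = 6) in Smc3/Bcl6 tumors, a difference of -0.55, which is close to the spread between tumors of 1 genotype. Without Smc3/Bcl6 tumor 2 the Smc3/Bcl6 mean was 5.41 ± 0.53 (SD, n = 5) and the difference -0.64. Bcl6 tumor 1 and Smc3/Bcl6 tumor 4 set much of it, since the difference was -0.29 without the first and -0.36 without the second (-0.35 and -0.38 when the other 8 were scaled anew). The genotypes overlapped, because Smc3/Bcl6 tumors 1 and 2 had higher means than both Bcl6 tumors 2 and 3. Paired by replicate number, the Smc3/Bcl6 tumor minus the Bcl6 tumor gave -0.73 for number 1, with 37 of 37 members lower, 0.09 for number 2, with 19 lower, and 0.04 for number 3, with 15 lower. The share of all genes lower in each pair was not counted. Number 2 holds the Smc3/Bcl6 tumor with low counts of long genes and high counts of short genes. In bulk tumor RNA, fewer dividing cells and less mitotic RNA in each cell cannot be told apart.

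The comparison of genotypes asks whether tumors with a deleted Smc3 allele express the mitotic program at another level. With the study's thresholds (unadjusted p under 0.1, log2 fold change beyond 0.56 in either direction), 9 of 37 members were lower in Smc3/Bcl6 tumors and 0 were higher, whereas 0.868% of all genes tested were past the thresholds in the lower direction and 1.28% in the higher. These shares come from the edgeR fit made here. The study used DESeq2 and reported more genes lower than higher in Smc3/Bcl6 tumors, the reverse of these shares. The 9 were Bub1, Cenpe, Ect2, Kif23, Kif2c, Kif4, Prc1, Top2a and Tpx2. A negative log2 fold change was found for 32 of 37 members and for 42.6% of all genes, and its median was -0.50 over the members and 0.06 over all genes. After Benjamini-Hochberg adjustment, edgeR's quasi-likelihood test called 0 members (adjusted p = 1.00 for each) and 0.0% of all genes. At an unadjusted p below 0.05 it called 1 member, Top2a, against 0.562% of all genes, while DESeq2 called 1 member (1.49% of genes) and limma 6 (8.33% of genes) at this level and both called 0 after adjustment. With all tumors, DESeq2 gave no p-value for Bub1b and Ube2c, so it could not call them. Without Smc3/Bcl6 tumor 2 it gave none for Bub1b.

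The count depended on single tumors. Without Smc3/Bcl6 tumor 2, 17 members were past the thresholds, all lower, against 1.39% of genes, and 36 of 37 fold changes were negative, against 46.8% of genes, with a median of -0.61. Of the 9 members, 7 were also among these 17, and the 2 that were not, Bub1 and Kif23, had unadjusted p = 0.11 and a log2 fold change of -0.54, respectively. Without Bcl6 tumor 1, however, 0 of 37 were past the thresholds, against 1.64% of genes in the lower direction, and the median was -0.20. Without Smc3/Bcl6 tumor 4 there were 2, Bub1 and Top2a (1.08% of genes), and without tumor 6 there were 3, Cenpe, Ect2 and Top2a (0.44% of genes). Top2a stayed past the thresholds in 8 of the 9 settings that left out a tumor, Cenpe and Ect2 in 7. When tumors numbered 1 to 3 were compared as pairs, with the replicate number as a block, 4 members were lower (Cenpe, Cenpf, Mki67 and Top2a), against 1.9% of genes, and the median log2 fold change was -0.25. Of the 9, Cenpe and Top2a were past the thresholds in both fits.

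**Figure D2:**
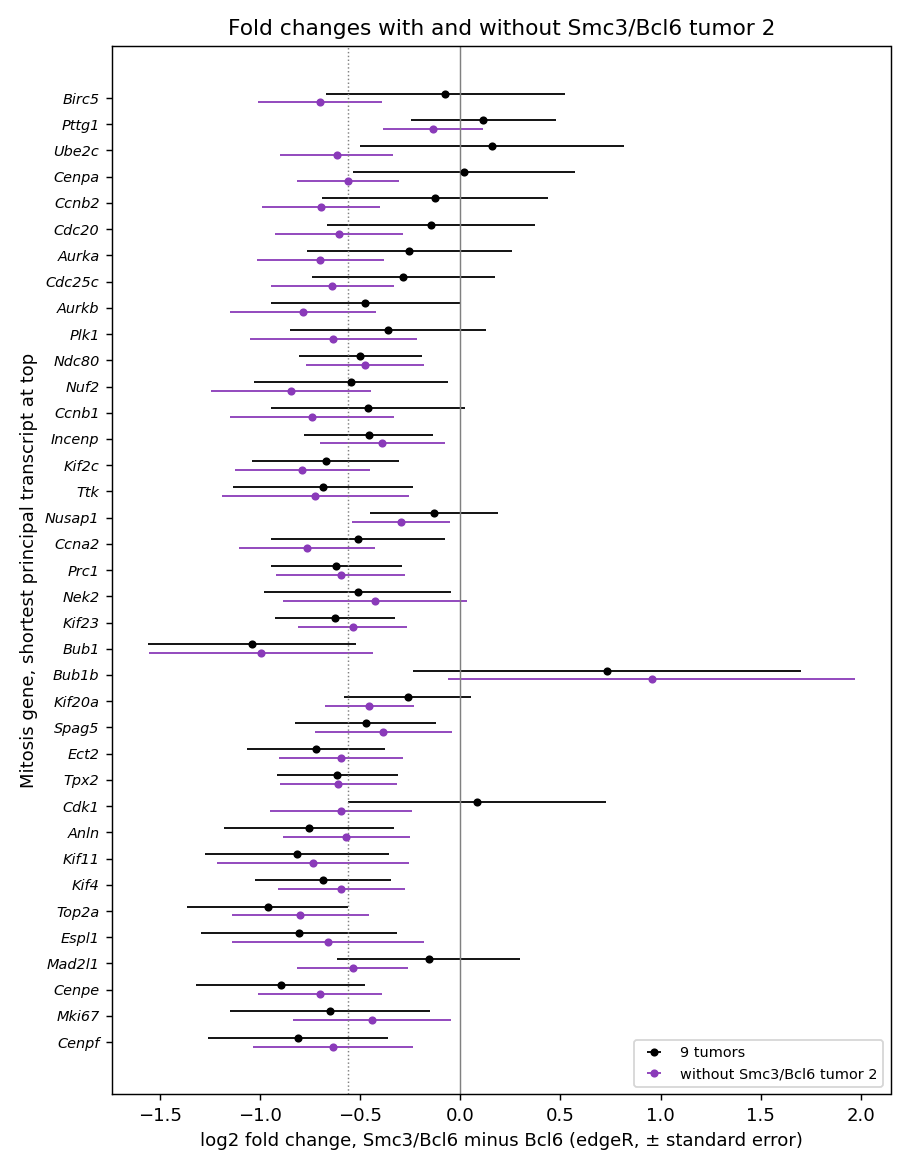
Log2 fold change of each mitosis gene, Smc3/Bcl6 minus Bcl6 (horizontal axis), with genes on the vertical axis from the shortest principal transcript at the top to the longest at the bottom; points are edgeR estimates, bars are standard errors, black is all 9 tumors, purple leaves out Smc3/Bcl6 tumor 2, and the dotted line marks -0.56. In black the 5 positive values belong to Bub1b, Cdk1, Cenpa, Pttg1 and Ube2c, and in purple only Bub1b lies right of 0.

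Among the cyclins, Cdk1 and the phosphatase that activates it, 0 of 5 were past the thresholds in the 9 tumors and 3 without Smc3/Bcl6 tumor 2, and the log2 fold changes ranged from -0.51 (Ccna2) to 0.08 (Cdk1), and from -0.77 (Ccna2) to -0.59 (Cdk1) without that tumor. Cdk1 (ENSMUSG00000019942.7, chr10:69335146-69352938, minus strand) is the kinase that drives mitotic entry. Its values, here and below in the order of the replicate numbers, were 133, 76 and 72.7 CPM in the 3 Bcl6 tumors and 85.3, 291, 75.4, 27.2, 66.1 and 52.5 CPM in the 6 Smc3/Bcl6 tumors. Tumor 2 was far above the rest and tumor 4 far below, and the groups overlapped. Cdk1 had a log2 fold change of 0.08 ± 0.64 (SE) with all tumors and of -0.59 ± 0.36 without tumor 2. Ccnb1 (ENSMUSG00000041431.11, chr13:100778650-100786570, minus strand), cyclin B1, is its partner at entry. Ccnb1 had 98.9, 50.9 and 56.4 CPM in the Bcl6 tumors and 67, 97, 47.5, 16.1, 40.5 and 31.5 CPM in the Smc3/Bcl6 tumors, with Bcl6 tumor 1 and Smc3/Bcl6 tumor 2 at almost the same level and overlap between the groups. Ccnb1 gave a log2 fold change of -0.46 ± 0.49 (SE), and -0.74 ± 0.41 without tumor 2. Without tumor 2, the members of this group past the thresholds were Ccna2, Ccnb2 and Cdc25c.

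Plk1, Aurka and Nek2, the centrosome and spindle kinases, had log2 fold changes from -0.51 to -0.25 with all tumors and from -0.70 to -0.43 without Smc3/Bcl6 tumor 2, and Aurka alone was past the thresholds in the latter. Plk1 (ENSMUSG00000030867.6, chr7:122159439-122169873, plus strand) promotes entry, spindle assembly and the release of cohesin from chromosome arms. Plk1 had 118, 66.3 and 54.3 CPM in the Bcl6 tumors and 54.5, 120.3, 77.2, 19.97, 61.6 and 37.5 CPM in the Smc3/Bcl6 tumors. Smc3/Bcl6 tumor 2 reached the level of Bcl6 tumor 1, and tumor 4 was the lowest. The log2 fold change of Plk1 was -0.36 ± 0.49 (SE), and -0.63 ± 0.42 without tumor 2.

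The chromosomal passenger complex corrects faulty attachments and directs cytokinesis, and 0 of its 3 members were past the thresholds, 2 without Smc3/Bcl6 tumor 2. Aurkb (ENSMUSG00000020897.7, chr11:69045647-69051664, plus strand) is its kinase. Aurkb had 168, 91.7 and 74.7 CPM in the Bcl6 tumors and 83.9, 164, 84.6, 29.5, 61.1 and 57.9 CPM in the Smc3/Bcl6 tumors, and the groups overlapped through tumors 1, 2 and 3. Aurkb gave a log2 fold change of -0.47 ± 0.47 (SE), and -0.79 ± 0.36 without tumor 2. Birc5 (ENSMUSG00000017716.10, chr11:117849251-117855743, plus strand), survivin, targets the complex to centromeres. Birc5 had 132, 87.2 and 73.2 CPM in the Bcl6 tumors and 78.3, 261, 80.1, 32.2, 55.7 and 49.3 CPM in the Smc3/Bcl6 tumors, so that tumor 2 held the highest value of all 9. Birc5 had a log2 fold change of -0.08 ± 0.60 (SE) that became -0.70 ± 0.31 without tumor 2, past the thresholds. Incenp, the scaffold, was the member of the complex with the longest transcript and had a log2 fold change of -0.46 ± 0.32 (SE), and of -0.39 ± 0.31 without tumor 2.

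The spindle checkpoint held both the most negative and the most positive fold change of the list. Bub1 (ENSMUSG00000027379.8, chr2:127801122-127831865, minus strand), the kinase that recruits the checkpoint to kinetochores and marks centromeric histones for shugoshin, which protects centromeric cohesin, had 97.7, 43.8 and 24.6 CPM in Bcl6 tumors and 34.6, 26, 46.7, 8.19, 25.3 and 20.5 CPM in Smc3/Bcl6 tumors. Its values spread widely in both groups and overlapped, with Bcl6 tumor 3 below 4 of the Smc3/Bcl6 tumors. Bub1 had a log2 fold change of -1.04 ± 0.52 (SE, unadjusted p = 0.0731 from edgeR), and of -0.996 ± 0.56 without tumor 2. Mad2l1 (ENSMUSG00000029910.9, chr6:66535390-66547220, plus strand) holds Cdc20 inactive until attachment is complete. Mad2l1 had 136, 88.9 and 83.5 CPM in Bcl6 tumors and 82.3, 204, 87.1, 39.8, 81.4 and 58.2 CPM in Smc3/Bcl6 tumors, with tumor 2 the highest and tumor 4 the lowest. Mad2l1 gave a log2 fold change of -0.16 ± 0.46 (SE), and -0.54 ± 0.28 without tumor 2. Ttk, the checkpoint's upstream kinase, had a log2 fold change of -0.68 ± 0.45 (SE), and of -0.72 ± 0.47 without tumor 2, and was not past the thresholds in either.

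Bub1b (ENSMUSG00000040084.9, chr2:118598211-118641591, plus strand) encodes BubR1, the checkpoint protein that inhibits the anaphase-promoting complex, and departed from the rest of the list in a single tumor. It had 191, 108 and 113 CPM in the Bcl6 tumors and 135, 71.1, 103, 34.4, 941 and 82.7 CPM in the Smc3/Bcl6 tumors. Smc3/Bcl6 tumor 5 was thus 8.99 times the mean and 4.94 times the highest of the other 8 tumors, which ranged from 34.4 to 191 CPM. Ranked by how far tumor 5 exceeded the highest other tumor on the log2 scale (2.30), Bub1b had rank 10 among the 14057 genes tested. The log2 fold change of Bub1b was 0.73 ± 0.97 (SE), the only positive value of the list without tumor 2 (0.96 ± 1.02), and it was -0.69 without tumor 5. The 4 expressed genes on each side of Bub1b, Gpr176, Eif2ak4, Srp14, Bmf, Pak6, Plcb2, 5430417L22Rik and Knstrn, were in tumor 5 within the range of the other 8 tumors. Knstrn, a kinetochore protein gene, had 22.9 CPM in tumor 5 and between 14.7 and 45.6 CPM elsewhere, and Plcb2 had 22.8 CPM and between 4.87 and 82.9 CPM elsewhere. Pak6 was low in every tumor, with 0.55 CPM in tumor 5 and between 0.21 and 2.56 CPM elsewhere. Without Bub1b the mean of the other 36 members was 5.50 log2 CPM in tumor 5, and the difference between genotypes was -0.56.

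**Figure D3:**
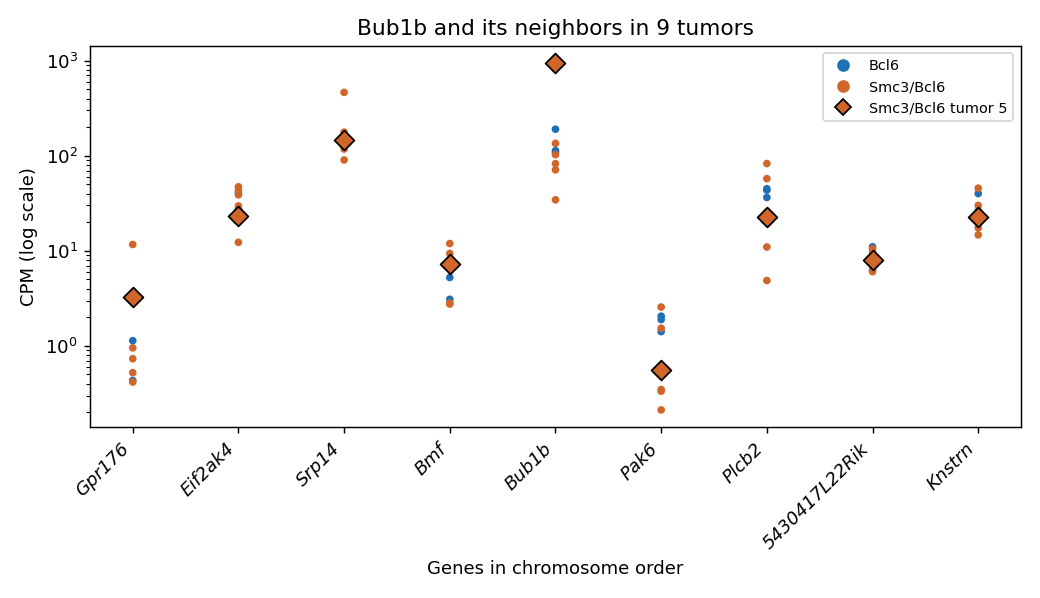
CPM on a log axis (vertical) of Bub1b and its 4 expressed neighbors on each side in chromosome order (horizontal axis) in 9 tumors; blue points are Bcl6, orange points Smc3/Bcl6, and the diamond is Smc3/Bcl6 tumor 5. The diamond lies above all other tumors only at Bub1b (941 CPM).

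At the centromere and kinetochore, 1 of 5 members was past the thresholds in 9 tumors and 3 without Smc3/Bcl6 tumor 2. Cenpe (ENSMUSG00000045328.7, chr3:135212537-135273611, plus strand) is the motor that carries chromosomes to the spindle equator. Cenpe had 91.7, 56.9 and 48.2 CPM in Bcl6 tumors and 48.6, 12.9, 47.2, 20.8, 47.5 and 34.3 CPM in Smc3/Bcl6 tumors. The groups overlapped only through Smc3/Bcl6 tumor 1, at nearly the level of Bcl6 tumor 3, and tumor 2 was the lowest. Cenpe had a log2 fold change of -0.90 ± 0.42 (SE, unadjusted p = 0.0594 from edgeR), and of -0.70 ± 0.31 without tumor 2. Cenpf (ENSMUSG00000026605.9, chr1:189640606-189688086, minus strand), a large fibrous kinetochore protein, had 82.6, 46 and 40.4 CPM in Bcl6 tumors and 50.6, 14.5, 31.7, 15.5, 52 and 28.1 CPM in Smc3/Bcl6 tumors. Smc3/Bcl6 tumors 1 and 5 exceeded Bcl6 tumors 2 and 3. Cenpf gave a log2 fold change of -0.81 ± 0.45 (SE), and -0.64 ± 0.40 without tumor 2. Of the others, Cenpa, the centromeric histone, had a log2 fold change of 0.02 that became -0.56 without tumor 2, and Nuf2 had -0.55 and -0.85, while Ndc80, its partner in the microtubule-binding complex, had -0.50 and -0.48.

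The anaphase trigger comprises the machinery that ends in cohesin cleavage, and 0 of its 4 members were past the thresholds in 9 tumors and 2, Cdc20 and Ube2c, without Smc3/Bcl6 tumor 2. Espl1 (ENSMUSG00000058290.3, chr15:102296266-102324357, plus strand), separase, had 87.4, 38.4 and 59 CPM in Bcl6 tumors and 64.9, 18.6, 44.2, 11, 35.5 and 36.9 CPM in Smc3/Bcl6 tumors. Smc3/Bcl6 tumors 1 and 3 lay above Bcl6 tumor 2, and tumors 2 and 4 were the lowest. Espl1 had a log2 fold change of -0.81 ± 0.49 (SE), and of -0.66 ± 0.48 without tumor 2. Pttg1 (ENSMUSG00000020415.11, chr11:43420250-43426251, minus strand), securin, which keeps separase inactive, had 37.8, 62.9 and 51.8 CPM in Bcl6 tumors and 37.1, 100.1, 54.8, 61.6, 35.9 and 41 CPM in Smc3/Bcl6 tumors. It did not follow the other members, with Bcl6 tumor 1 among its lowest values and Smc3/Bcl6 tumor 4 among its highest. Pttg1 gave a log2 fold change of 0.11 ± 0.36 (SE), and -0.14 ± 0.25 without tumor 2.

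Cdc20 (ENSMUSG00000006398.10, chr4:118432901-118437352, minus strand), the activator of the anaphase-promoting complex, had 140.2, 89.2 and 82 CPM in Bcl6 tumors and 103, 226, 78.9, 35.8, 62.2 and 56 CPM in Smc3/Bcl6 tumors. Cdc20 gave a log2 fold change of -0.15 ± 0.52 (SE), and -0.61 ± 0.32 without tumor 2, whose value was the highest of all. Ube2c (ENSMUSG00000001403.8, chr2:164769898-164778822, plus strand), the ubiquitin-conjugating enzyme of that complex, had 145, 94.3 and 74.9 CPM in Bcl6 tumors and 88.6, 366, 78, 42.7, 74 and 52 CPM in Smc3/Bcl6 tumors. Tumor 2 held 4.50 times the mean of the other 8 tumors, the largest such ratio of the list. Ube2c had a log2 fold change of 0.16 ± 0.66 (SE) with all tumors and of -0.62 ± 0.28 without tumor 2.

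Among the spindle motors and microtubule binders, 3 of 6 were past the thresholds, Kif2c, Kif4 and Tpx2, and the same number without Smc3/Bcl6 tumor 2. Kif11 (ENSMUSG00000012443.3, chr19:37376403-37421859, plus strand), the motor that separates the spindle poles, had 75.4, 22 and 31.8 CPM in Bcl6 tumors and 31.4, 20.2, 31.3, 8.92, 30.7 and 24.3 CPM in Smc3/Bcl6 tumors. Bcl6 tumor 1 was far above every other tumor, Smc3/Bcl6 tumor 4 was the lowest, and Bcl6 tumor 2 lay within the Smc3/Bcl6 range. Kif11 gave a log2 fold change of -0.81 ± 0.46 (SE), and -0.73 ± 0.48 without tumor 2, and it was not past the thresholds in either. Kif2c (ENSMUSG00000028678.8, chr4:117159639-117182639, minus strand), a depolymerase of kinetochore microtubules, had 65.4, 41.6 and 37.5 CPM in Bcl6 tumors and 29.8, 44.2, 43.4, 15.3, 29 and 19.7 CPM in Smc3/Bcl6 tumors. The groups overlapped at tumors 2 and 3. Kif2c had a log2 fold change of -0.67 ± 0.37 (SE, unadjusted p = 0.0957 from edgeR), and of -0.79 ± 0.34 without tumor 2.

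Kif4 (ENSMUSG00000034311.3, chrX:100625737-100727214, plus strand), a chromosome-bound motor, had 50.01, 27.8 and 35.7 CPM in Bcl6 tumors and 35.8, 17.1, 33.3, 17, 16.8 and 21 CPM in Smc3/Bcl6 tumors. Tumors 2, 4 and 5 had nearly equal and low values, and tumors 1 and 3 lay within the Bcl6 range. Kif4 had a log2 fold change of -0.69 ± 0.34 (SE, unadjusted p = 0.0711 from edgeR), and of -0.59 ± 0.32 without tumor 2. Tpx2 (ENSMUSG00000027469.11, chr2:152847964-152895321, plus strand), which activates Aurora A on spindle microtubules, had 135, 79.2 and 80.1 CPM in Bcl6 tumors and 85.5, 67.9, 75.6, 34.7, 61.8 and 59.4 CPM in Smc3/Bcl6 tumors. Smc3/Bcl6 tumor 1 alone exceeded Bcl6 tumors 2 and 3. Tpx2 had a log2 fold change of -0.61 ± 0.30 (SE, unadjusted p = 0.0706 from edgeR), and of -0.61 ± 0.29 without tumor 2. Nusap1 and Spag5, the remaining members of this group, had log2 fold changes of -0.13 and -0.47 with all tumors and of -0.30 and -0.38 without tumor 2.

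The genes of the spindle midzone and cytokinesis had log2 fold changes from -0.76 (Anln) to -0.26 (Kif20a), and 3 of 5 were past the thresholds. Without Smc3/Bcl6 tumor 2 they ranged from -0.60 (Prc1) to -0.45 (Kif20a), and 2 of 5 were past the thresholds. Kif23 (ENSMUSG00000032254.9, chr9:61915905-61946774, minus strand), a motor of the centralspindlin complex, had 97.3, 58.2 and 47.2 CPM in Bcl6 tumors and 59.8, 34.2, 53.6, 31.4, 45 and 38.7 CPM in Smc3/Bcl6 tumors. Smc3/Bcl6 tumors 1 and 3 lay above Bcl6 tumor 3. Kif23 had a log2 fold change of -0.62 ± 0.30 (SE, unadjusted p = 0.0633 from edgeR), and of -0.54 ± 0.27 without tumor 2. Prc1 (ENSMUSG00000038943.11, chr7:80294450-80316259, plus strand), which bundles the antiparallel microtubules of the midzone, had 175, 97.5 and 108 CPM in Bcl6 tumors and 120.4, 81.9, 99.8, 43, 68.2 and 82.1 CPM in Smc3/Bcl6 tumors. Smc3/Bcl6 tumors 1 and 3 exceeded Bcl6 tumor 2. Prc1 had a log2 fold change of -0.62 ± 0.33 (SE, unadjusted p = 0.0871 from edgeR), and of -0.60 ± 0.32 without tumor 2. Ect2 (ENSMUSG00000027699.14, chr3:27097222-27153878, minus strand), the exchange factor that activates RhoA at the division plane, had 97, 47.5 and 55.5 CPM in Bcl6 tumors and 54.9, 25.8, 59.3, 26.4, 37.9 and 38.4 CPM in Smc3/Bcl6 tumors. Tumors 1 and 3 again overlapped the Bcl6 range. Ect2 had a log2 fold change of -0.72 ± 0.34 (SE, unadjusted p = 0.0633 from edgeR), and of -0.60 ± 0.31 without tumor 2.

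Top2a (ENSMUSG00000020914.12, chr11:98992943-99024189, minus strand), the topoisomerase that untangles sister chromatids, was the only member whose genotypes did not overlap in the 9 tumors, and Cenpe joined it when RLE took the place of TMM scaling. It had 444, 259 and 248 CPM in Bcl6 tumors and 245, 79.9, 215, 84.4, 204 and 147 CPM in Smc3/Bcl6 tumors. The gap was narrow, since Smc3/Bcl6 tumor 1 lay just below Bcl6 tumor 3, and such a gap in the lower direction was found for 0.199% of all genes. Top2a had a log2 fold change of -0.96 ± 0.40 (SE, unadjusted p = 0.0375 from edgeR), and of -0.80 ± 0.34 with unadjusted p = 0.0462 without tumor 2. Without that tumor, and with the other 8 scaled anew, Cenpe, Nuf2 and Top2a did not overlap, against 0.904% of genes, whereas with the scaling of all 9 kept these were Kif20a and Top2a. Mki67 (ENSMUSG00000031004.7, chr7:135689784-135716361, minus strand), the surface protein of mitotic chromosomes known as Ki-67, had 358, 242 and 226 CPM in Bcl6 tumors and 278, 53.5, 159, 84.9, 312 and 165 CPM in Smc3/Bcl6 tumors. Smc3/Bcl6 tumors 1 and 5 exceeded Bcl6 tumors 2 and 3, and tumor 2 was the lowest although many other members were highest there. Mki67 had a log2 fold change of -0.65 ± 0.50 (SE), and of -0.44 ± 0.39 without tumor 2.

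**Figure D4:**
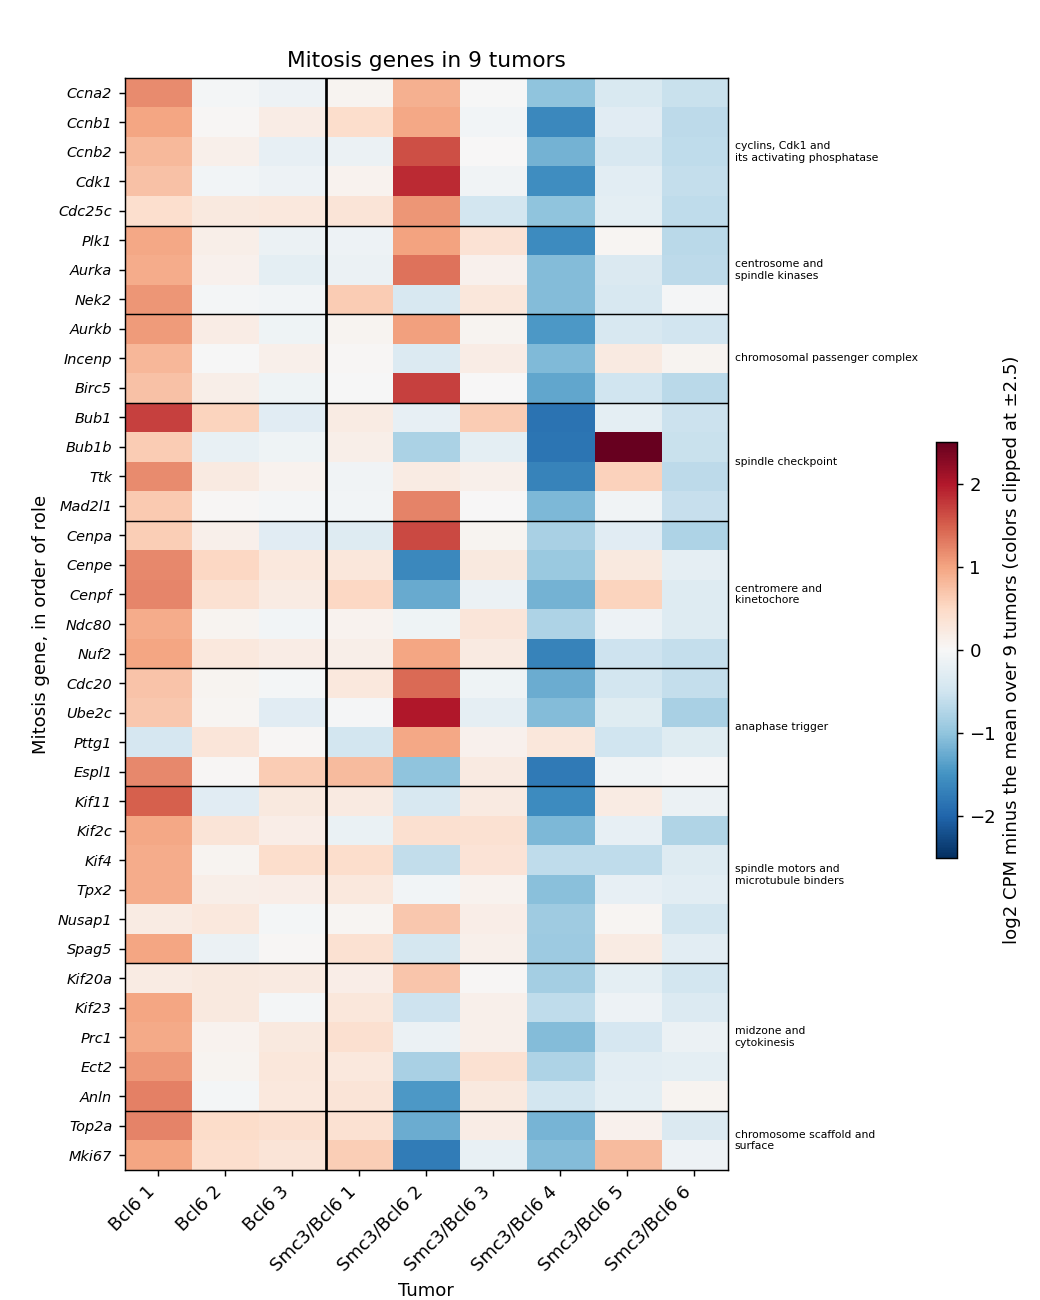
Log2 CPM of each mitosis gene (rows, grouped by role) in each tumor (columns), minus the gene's mean over the 9 tumors; red is above and blue below the mean, colors are clipped at ±2.5, and the thick line divides Bcl6 from Smc3/Bcl6. Bcl6 tumor 1 is red for 36 of 37 genes, Smc3/Bcl6 tumor 4 is blue for 36 of 37, and Smc3/Bcl6 tumor 2 mixes strong red and strong blue.

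Smc3/Bcl6 tumor 2 split the list by transcript length. Relative to the mean of the other 8 tumors on the log2 scale, 19 members lay above and 18 below in this tumor, from -1.97 (Mki67) to 2.26 (Ube2c). Of the 19 members with the shorter principal transcripts (947 to 3008 bases), 10 were highest in tumor 2 and 0 were lowest there. Of the 18 with the longer transcripts (3227 to 11130 bases), 3 were highest and 6 lowest in tumor 2. Cdk1 (4375 bases), Mad2l1 (7557 bases) and Kif20a (3674 bases) departed from this order, with 3.96, 2.48 and 1.66 times the mean of the other tumors. So did Incenp, Prc1 and Ndc80 among the shorter members, with deviations of -0.39, -0.17 and -0.12 on the log2 scale. Cenpe, with 7910 bases, was at 0.261 times that mean, and Mki67, with 10061 bases, at 0.235 times. Spearman's rho between this deviation and transcript length was -0.76 over the 37 members and -0.61 over 12398 genes tested. In the other 8 tumors it lay between -0.02 and 0.63 over the members, which share these libraries and are not independent. The mean each of these tumors was set against included tumor 2, so these values do not show a length trend of those tumors alone.

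Leaving out tumor 2 lowered the log2 fold change of 16 of the 19 shorter members and raised that of 15 of the 18 longer ones. The exceptions were Incenp, Ndc80 and Prc1 among the shorter members, and Cdk1, Mad2l1 and Kif20a among the longer. These are the members that departed from the length order above. Both counts largely follow from the deviations of tumor 2, which enters the Smc3/Bcl6 mean, and are no separate result. The median log2 fold change of the shorter members was -0.36 with all tumors and -0.64 without tumor 2, whereas that of the longer members was -0.67 and -0.59. With the 8 tumors the shorter and the longer members had nearly the same median.

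**Figure D5:**
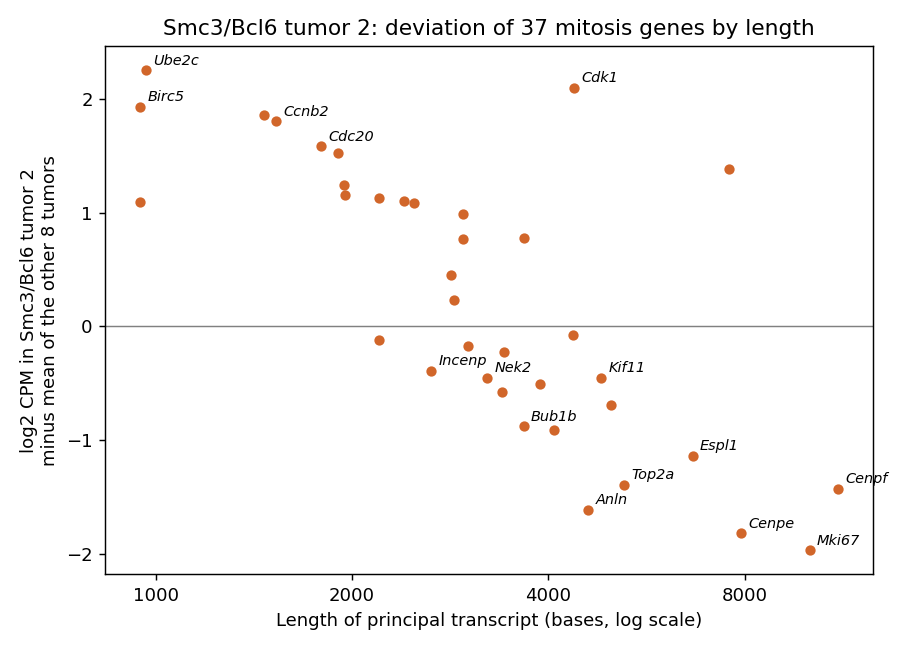
Log2 CPM in Smc3/Bcl6 tumor 2 minus the mean of the other 8 tumors (vertical axis) against the length of the principal transcript in bases on a log axis (horizontal); each point is a mitosis gene. Most short genes, such as Ube2c, lie above 0 and most long genes, such as Mki67, below. Cdk1, Mad2l1 (unlabeled, at 7557 bases) and Kif20a (unlabeled, at 3674 bases) lie above 0 despite their length. Incenp, Ndc80 and Prc1 lie below 0 although they are among the shorter.

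Levels were compared between members per kilobase of principal transcript. In the Bcl6 tumors Ube2c, at 108 CPM per kilobase, and Birc5, at 103, were the highest, followed by Ccnb2 at 72.8 and Ccna2 at 67.8. Nek2, at 2.27 CPM per kilobase, and Anln, at 4.83, were the lowest. Per kilobase of all annotated exons, including those found only in other transcripts, the order changed. Ccnb2 was then at 72.8, Cdc20 at 55.6, Ube2c at 40.3 and Birc5 at 28.7. The position of Birc5 and Ube2c at the top thus depends on which length is taken.

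The members varied between tumors more than genes at large. The median SD of log2 CPM was 0.48 over the members and 0.35 over all genes tested in the Bcl6 tumors. In the Smc3/Bcl6 tumors it was 0.78 and 0.71, and without tumor 2 it was 0.54 and 0.44. Within the Bcl6 tumors Kif20a had the smallest SD (0.02) and Bub1 the largest (1.00), and within the Smc3/Bcl6 tumors Kif23 had the smallest (0.36) and Bub1b the largest (1.61).

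Other genes of division, taken from lists by function, mostly lay in the same direction with smaller medians, and those of the anaphase-promoting complex had a median near 0. In the lower direction 0.868% of all genes were past the thresholds with all tumors and 1.39% without Smc3/Bcl6 tumor 2. Of 34 further kinetochore and centromere genes, 2 were lower past the thresholds, among them Nsl1, a subunit of the Mis12 complex (log2 fold change -0.62 ± 0.31), with a median of -0.22 over the list. Without tumor 2 these were 7 of 34, with a median of -0.40 and Nsl1 at -0.52. Of 28 further spindle and cytokinesis genes, 6 were lower, with a median of -0.41. The 5 with the smallest p were Dlgap5, Ckap2l, Kif14, Bora and Hmmr, with log2 fold changes of -0.72, -0.73, -0.90, -0.56 and -0.84, and of -0.74, -0.81, -0.81, -0.53 and -0.81 without tumor 2, when 6 of 28 were lower and the median was -0.53. Of 18 kinases and phosphatases of mitotic entry, 2 were lower, the centriole kinase Plk4 (-0.66) and Mastl (-0.58), the kinase that restrains the phosphatase PP2A, with a median of -0.22. Without tumor 2 these were 3 of 18, with Plk4 at -0.65, Mastl at -0.57 and a median of -0.40. Of 17 genes of the anaphase-promoting complex and its partners, 0 were past the thresholds and the median was 0.10, and without tumor 2 these were 2 and -0.017, so that the sign of this median rested on that tumor. No gene of these lists was higher past the thresholds, against 1.28% of all genes. Neither these lists nor those of the next paragraph were counted without Bcl6 tumor 1.

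Of 18 regulators that drive or restrain these genes, 4 were lower past the thresholds, against 0.868% of all genes, with a median of -0.22. They were E2f7 and E2f8, both repressors of E2F targets, Rbl1, the pocket protein p107 of the repressive DREAM complex, and Foxm1, the activator of G2 and M phase genes. E2f7 had 22.9, 7.56 and 10.2 CPM in Bcl6 tumors and 7.28, 2.12, 6.01, 5.12, 4.26 and 5.20 CPM in Smc3/Bcl6 tumors, and a log2 fold change of -1.44 ± 0.46 (SE). The groups did not overlap, which was found in the lower direction for 0.199% of all genes. The gap was narrow, between 7.28 CPM in Smc3/Bcl6 tumor 1 and 7.56 CPM in Bcl6 tumor 2, and Bcl6 tumor 1 was far above all others. Foxm1 had 81.5, 29.4 and 43.1 CPM in Bcl6 tumors and 43.4, 31.5, 39.5, 15.7, 27.6 and 29.5 CPM in Smc3/Bcl6 tumors, with a log2 fold change of -0.72 ± 0.38 (SE). Mybl2, which encodes B-Myb, had a log2 fold change of -0.34 ± 0.45 (SE) and Lin9, a MuvB subunit, of -0.23 ± 0.31 (SE), and neither was past the thresholds. Without Smc3/Bcl6 tumor 2, E2f7 alone of these 18 was past the thresholds (-1.25 ± 0.37), against 1.39% of all genes, and the median was -0.18. Foxm1 and E2f8 kept log2 fold changes of -0.70 and -0.60 but had unadjusted p = 0.107 and 0.104 from edgeR, and Rbl1, at -0.47, fell short of the fold limit. Mybl2 was then at -0.47 and Lin9 at -0.073. Of 30 S-phase genes, 2 were lower with all tumors, the ligase Lig1 (-0.64) and the polymerase subunit Pola1 (-0.63), with a median of -0.34. Without tumor 2 these were 8 of 30, with Lig1 at -0.66, Pola1 at -0.47 and a median of -0.50.

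Markers of other cells differed between the same tumors. The counts of markers past the thresholds, read against 0.868% of all genes lower and 1.28% higher, were the same in each list without Smc3/Bcl6 tumor 2, when 1.39% of genes were lower and 2.43% higher. Summed B-cell markers (7 genes) ranged from 2902 to 8837 CPM in Bcl6 and from 4806 to 10650 CPM in Smc3/Bcl6 tumors, with 0 of 7 past the thresholds, and the germinal center list ranged from 308 to 774 and from 257 to 717 CPM, with 1 of 8 lower and Rgs13 at 0 in some tumors. Erythroid markers (8 genes, 3 higher past the thresholds and 0 lower) summed to between 45.3 and 1475 CPM in Bcl6 tumors and between 123 and 12952 CPM in Smc3/Bcl6 tumors. The highest sum was in tumor 4, where the mean of the mitosis genes was the lowest of all 9 tumors (4.54 log2 CPM). Tumors 2 and 6 followed with 4663 and 4296 CPM, and tumor 6 had the second lowest mitosis mean (5.25) and tumor 2, whose values split by length, a mean of 5.91. Smc3/Bcl6 tumor 4 also held the highest sums of B-cell markers (10650 CPM) and stroma markers (330 CPM) of all 9 tumors. The sums of the other marker lists peaked in other tumors. T-cell markers (8 genes, 0 past the thresholds) summed to 122 CPM in Bcl6 tumor 1 and to 1956 and 1669 CPM in Bcl6 tumors 2 and 3. In Smc3/Bcl6 tumors they were low in tumors 1, 4 and 6, at 39.5, 102 and 75.6 CPM, and between 624 and 2085 CPM in the others. Macrophage markers (0 of 8 past the thresholds) ranged from 437 to 7841 and from 269 to 8354 CPM, neutrophil markers (2 of 7 lower, Ltf and Elane at 0 in some tumors) from 19.1 to 1842 and from 8.13 to 831 CPM, plasma cell markers (0 of 8, Tnfrsf17 at 0 in some) from 1816 to 2211 and from 937 to 6314 CPM, and stroma markers (0 of 6 tested, with Col3a1, Ccl21a and Pdpn at 0 in some) from 96.9 to 126 and from 19.5 to 330 CPM, in Bcl6 and Smc3/Bcl6 tumors respectively. Among the Smc3/Bcl6 tumors, tumor 2 held the highest plasma cell and T-cell sums and the lowest stroma sum, and without it these ran from 937 to 5186, from 39.5 to 1889.6 and from 49.99 to 330 CPM. The part of these cells in the differences between the mitosis genes was not tested.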

How the data were processed

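RNA of 9 mouse lymphomas, 3 Bcl6 and 6 Smc3/Bcl6, was measured as 1 library per tumor. The authors prepared libraries with the Illumina TruSeq kit, ran the nf-core pipeline for RNA-seq, with STAR as aligner to mm10, counted reads per Gencode gene with featureCounts, and deposited raw counts without normalization. The strand setting and the treatment of reads that match several genes are not given in the sources used here. The submitters' processing notes also name R 4.0.2 and DESeq2 1.28.1. The table held 0 columns without a sample.

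The labels gave each tumor's genotype and number. Counts were fitted with edgeR 4.0.16 in R 4.3.3 after TMM scaling and its expression filter per genotype. Its quasi-likelihood test was adjusted by Benjamini-Hochberg over all genes tested, and the thresholds the study applied to these tumors (unadjusted p under 0.1, log2 fold change beyond 0.56 in either direction) were used beside an adjusted p under 0.05. Log2 CPM used a prior count of 2. Positions, exon lengths and principal transcripts came from GENCODE M21 (GRCm38), in which 97.87% of gene rows were found, and promoter windows from RefSeq. The scripts were tested on simulated data. P-values measure the spread between these tumors, each sequenced in 1 library. The total count per library, from 10156728 to 17774577, put every member at 37 or more counts in each tumor.

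The members, the lists of other genes and the tests were chosen with earlier results of these data known. Values in all tumors are given for members past the thresholds, for members taken for their roles, and for the members with the smallest and the largest fold change. From the other lists, genes past the thresholds (at most 5 per list, by p) and Foxm1, Mybl2 and Lin9 are named. A gene of the kinetochore and centromere list is not reported here. Alternatives were DESeq2 1.42.0, limma 3.58.1 with quality weights, RLE scaling, no filter, an exon length offset, the tissue label as a covariate, a replicate block, and each tumor left out.

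Tumors with the same replicate number were treated as possible pairs, because their deviations from the genotype means correlated over 13360 genes, with r = 0.47, 0.13 and 0.18 for numbers 1, 2 and 3. The unmatched pair of Bcl6 tumor 2 and Smc3/Bcl6 tumor 3 had r = 0.36, above the matched values for numbers 2 and 3. Over the 37 members alone r was 0.23, 0.48 and -0.02. The pairing comes from these numbers alone. The tissue label sets both tumors numbered 1 apart from the rest, and no label says what else tumors of the same number share.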

Additional observations from a re-analysis of the deposited data

Results flagged for a closer look

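In the 6 Smc3/Bcl6 tumors, 52 measures (the members, the lists and the module mean among them) were checked for an extreme tumor, by the part of the whole range that lies between it and its nearest neighbor. A share above 0.625 was met by 5 of them, and 2.6 would be met by chance at this level. Cenpa (0.642) and Ube2c (0.661) were highest in Smc3/Bcl6 tumor 2, and so was the mean of the anaphase-promoting complex list (0.726). Kif11 was lowest in Smc3/Bcl6 tumor 4 (0.648). The mean of the macrophage markers was lowest in Smc3/Bcl6 tumor 1 (0.802).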

How the results depend on the processing

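Among 37 members, the 9 past the thresholds became between 0 (1.64% of all genes lower past the thresholds) and 17 (1.39%) when 1 tumor was left out. With Smc3/Bcl6 tumor 2 left out, they became 18 with DESeq2 (1.38%) and 20 with the exon length offset (1.36%). With the tissue label as a covariate, which sets only both tumors numbered 1 apart, they became 2 (1.37%). In replicates 1 to 3 with no block they became 0 (0.659%), and at an unadjusted p below 0.05 they became 1. With the replicate block they became 4 (1.9%), and 3 with the exon length offset added (1.93%). In tumors numbered 1 to 3 alone, which the block compares, the difference in module mean was -0.23, and -0.0038 with the offset added. The block itself does not change this difference, because each number holds 1 tumor of each genotype. Smc3/Bcl6 tumors 4 to 6 are left out of it. The correlation of the deviation of Smc3/Bcl6 tumor 2 with length was -0.67 over exon length and -0.76 over principal transcripts. DESeq2 (7, with 0.719% of all genes lower past the thresholds), RLE scaling (8, 0.761%), no filter (11, 3.07%), limma (10, 7.13%) and the length offset (6, 0.839%) kept the count within 1.5 times, though the shares of all genes, 0.868% as reported, make the counts with no filter and limma not comparable, 0 members passed the adjusted threshold in any of these fits, and the median stayed negative throughout.

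For the fold changes of the 37 members, with 20 alternatives each, 545 comparisons kept direction and side of the thresholds, 76 fell short of them, 53 newly passed them and 66 changed direction, in 16 members. With the replicate block, the block with the length offset, and replicates 1 to 3 with no block, the estimates (log2) were 0.27, 0.25 and 0.48 for Birc5, -0.44, -0.38 and -0.42 for Bub1b, 0.0024, 0.063 and 0.0085 for Ccnb1, 0.24, 0.024 and 0.35 for Cdc20, and 0.14, 0.41 and 0.24 for Mad2l1, and 0.15, 0.019 and 0.22 for Aurka, 0.028, 0.10 and 0.046 for Kif20a and 0.13, 0.17 and 0.14 for Nusap1. With and without the block they were 0.064 and 0.063 for Plk1 and 0.21 and 0.38 for Ccnb2. The block with the offset gave 0.14 for Nuf2 and 0.11 for Cdc25c, which was at 0.10 in replicates 1 to 3 with no block. With DESeq2 and with the offset, both without Smc3/Bcl6 tumor 2, and with limma they were -0.59, -0.61 and -0.41 for Cdk1, -0.13, -0.058 and -0.36 for Pttg1, -0.56, -0.59 and -0.52 for Cenpa, and -0.62, -0.59 and -0.52 for Ube2c. The offset alone gave 0.21 for Mad2l1 and -0.030 for Ube2c, and no filter -0.015 for Cenpa. Leaving out 1 tumor gave ranges from -0.70 to 0.076 for Aurka, -0.70 to 0.12 for Birc5, -0.69 to 0.12 for Ccnb2, -0.56 to 0.20 for Cenpa, -0.69 to 1.01 for Bub1b, -0.61 to 0.045 for Cdc20, -0.59 to 0.33 for Cdk1, -0.54 to 0.016 for Mad2l1, -0.14 to 0.25 for Pttg1 and -0.62 to 0.37 for Ube2c. The cause was not tested. The fits that left out a tumor together with DESeq2 or the offset, those over replicates 1 to 3 with no block, and the principal transcript lengths were chosen after seeing the data. With 3 Bcl6 tumors, 1 of which stood far above the others, the genotype means rest on few tumors.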
